A study of Mus musculus with 22 samples.

Results

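The potassium channel genes described here are the mouse genes whose symbol begins with Kcn and that were measured in inguinal white fat by a probe set annotated to that gene alone. They were taken by symbol alone, although the family was picked with earlier results of these data known, and numbered 90 of the 22180 genes measured. Where a gene had more than 1 such probe set, which was so for 7 of them, the one with the highest mean over all arrays stood for it. Of the 90 genes, 88 code for proteins and 2 are long noncoding RNAs, Kcnq1ot1 and Kcnd3os.

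The fat pads came from male mice on a C57BL/6 background, 3 to 4 months old, of 2 genotypes, wild type and PPARα-null. The null mice lack the nuclear receptor PPARα in every tissue, so the comparison is not limited to fat cells. All mice first lived at 28 °C, close to thermoneutrality for a mouse, for 5 weeks. The warm groups then stayed at 28 °C, and the cold groups spent 1 week at 21 °C and 10 days at 5 °C. Arrays were made from 6 wild-type and 6 null mice kept at 28 °C and from 5 wild-type and 5 null mice kept at 5 °C, 1 mouse to an array, out of 10 housed in each group. The question asked of each gene was whether its signal changed in the cold, and whether PPARα made a difference to that.

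A potassium channel lets potassium ions leave (or, in some families, enter) a cell down their gradient and so sets how far the membrane is polarised. Voltage-gated channels open on depolarisation, inward rectifiers and two-pore channels carry the resting current, and a further group opens when calcium or sodium rises inside the cell. Auxiliary subunits do not conduct by themselves but change the traffic or the gating of a pore. In fat, potassium channels are found in adipocytes and also in the vessels, nerves and immune cells of the pad. In thermogenic adipocytes noradrenaline depolarises the membrane before it raises respiration, and the two-pore channel Kcnk3 is known from brown fat.

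Values are log2 signals per probe set, so a difference of 1 is a doubling, and a probe set's level cannot be set against that of another probe set. A change is reported as 5 °C minus 28 °C with its standard error (SE), and a gene was called when its Benjamini-Hochberg adjusted p from limma, taken over all 22180 genes, was under 0.05. A mean under 4 was treated as near background, a fixed limit that was not estimated from the arrays. Over all 41345 probe sets, the lower quartile of an array's values lay between 2.83 and 2.91 and the median between 4.16 and 4.25.

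Cell type markers were read first. Of 13 measured thermogenic adipocyte markers, 12 rose in each genotype (Fabp3 did not pass the test), and their mean signal went from between 5.88 and 6.43 at 28 °C to between 8.74 and 9.33 at 5 °C. All 12 macrophage markers and all 8 fibroblast markers fell in each genotype. Skeletal muscle and B and T cell markers were called in no cold comparison, but their mean signals ranged from 5.54 to 10.14 and from 3.94 to 7.96 between single mice. In a whole pad, fewer cells of a type and less RNA in each cell cannot be told apart. At 28 °C the Ppara probe set read 4.72 ± 0.23 (SD, n = 6) in wild-type mice and 4.88 ± 0.43 (SD, n = 6) in null mice, so it did not mark the genotype. Ppara is itself among the 12 thermogenic markers that rose in each genotype, the null mice included. Whether its probe set reads the deleted part of the gene was not tested.

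Most potassium channel genes gave little signal in this tissue. Of the 90, 36 had a mean of at least 4 and 54 lay near background, so that 40% were at or above 4 where 57.6% of all genes were. Just above the limit stood Kcna6 (4.02) and Kcnk4 (4.08), and just below it Kcnd3 (3.83) and Kcng4 (3.82). The subfamilies differed in how many members passed it. Among voltage-gated pore subunits (Kcna to Kcnd) 8 of 15 did, among two-pore channels (Kcnk) 6 of 13, among auxiliary subunits 7 of 16, among inward rectifiers (Kcnj) 5 of 14 and among calcium-activated channels (Kcnm and Kcnn pores) 4 of 5. Of the silent subunits Kcnf, Kcng, Kcns and Kcnv, which conduct only together with another pore subunit, 1 of 10 did, Kcns3, and of the 8 Kcnh channels only Kcnh2.

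**Figure D1:**
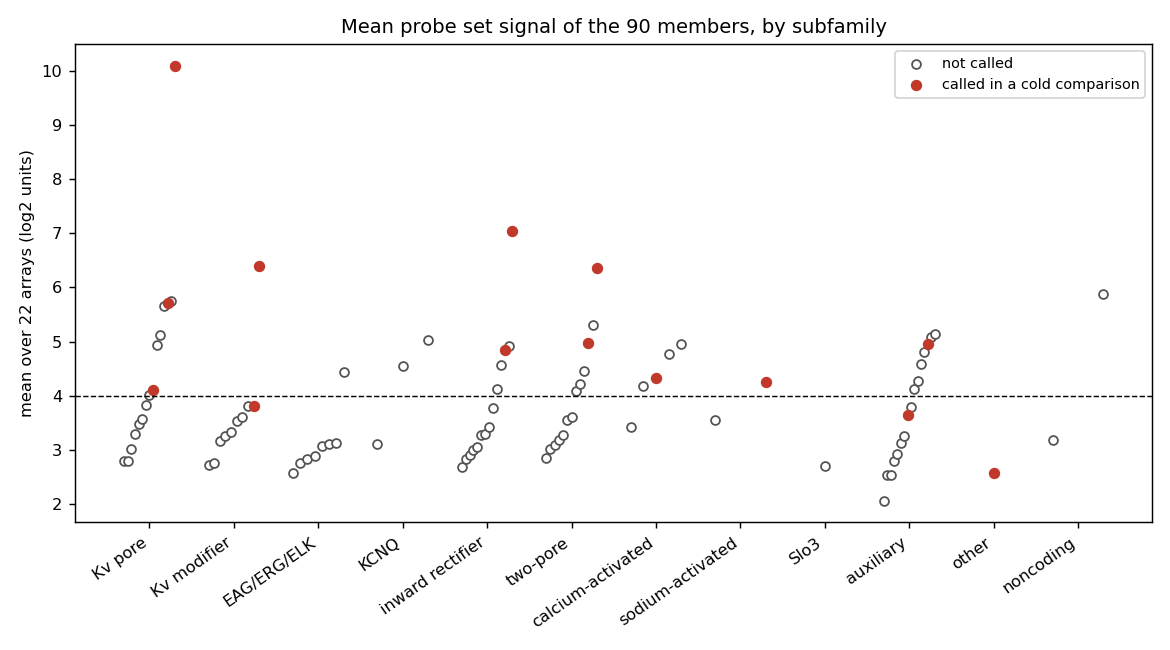
Mean log2 signal over the 22 arrays (y axis) of each of the 90 genes, in columns by subfamily, with a dashed line at 4. Filled points are genes called in a cold comparison of either genotype or of their average; 54 points lie below the line. The heights of different genes are signals of different probe sets and give no order of RNA amounts.

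In wild-type mice 9 of the 90 genes changed in the cold, 4 up and 5 down. This is 10% of them, where 16.7% of all genes were called in the same comparison (8.35% higher and 8.3% lower). Kcna4, Kcnj15, Kcng4 and Kcnj8 rose, and Kcnn3, Kcns3, Kcna2, Kcnrg and Kcnk6 fell. Of the 36 genes with a mean of at least 4, 7 were called (19.4%, against 26.6% of all such genes). These 36 genes varied more between mice, with a median SD within groups of 0.276, beside 0.166 for all such genes. What part this spread had in the called shares, here and below, was not tested. Of the 54 near background 2 were called (3.7%), Kcng4 and Kcnrg. Over all genes 3693 of 22180 were called, and 3398 of these were among the 12769 with a mean of at least 4. The median change over the 90 genes was -0.02, beside 0.01 over all genes.

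In PPARα-null mice 4 of the 90 genes changed, which is 4.44%, beside 13.2% of all genes (6.88% higher and 6.33% lower). Kcna4 and Kcnj15 rose, and Kcnd1 and Kcnt2 fell. All 4 had a mean of at least 4, so that 11.1% of the 36 such genes were called, beside 21.7% of all such genes. The median change of the 90 was 0.0019, beside -0.0034 over all genes. The number called in null mice rested on single arrays. It was 1 without null 28 °C replicate 2 or without null 5 °C replicate 1, and 2 without null 5 °C replicate 5. It was 7 without null 28 °C replicate 4, and Kcna4 was called each time. Over all genes 1525 were called higher and 1405 lower in the full fit. In the same order these were 1330 and 1165, 1272 and 1048, 1346 and 1139, and 1392 and 1227 without those arrays.

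Averaged over both genotypes, which uses the same arrays again, 13 of the 90 genes changed, 4 up and 9 down. They were 14.4% of the 90, where 24.8% of all genes were called (11.7% higher and 13.1% lower). Of the 36 with a mean of at least 4, 10 changed (27.8%, against 39.6% of all such genes). Kcna4, Kcnj15, Kcng4 and Kcnj8 rose. Kcnn3, Kcnt2, Kcnd1, Kcnab1, Kcnrg, Kcnab2, Kcnk5, Kcna2 and Kcns3 fell. When each array's median was subtracted first, the split was 5 up and 5 down in place of 4 and 9, and in wild type 5 up and 3 down in place of 4 and 5. That scaling moved the median of all genes in wild type from 0.01 to 0.07. Over all genes it gave 3578 up and 2052 down on average in place of 2586 and 2913. In wild type it gave 2592 up and 1203 down in place of 1852 and 1841, so all genes shifted the same way.

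**Figure D2:**
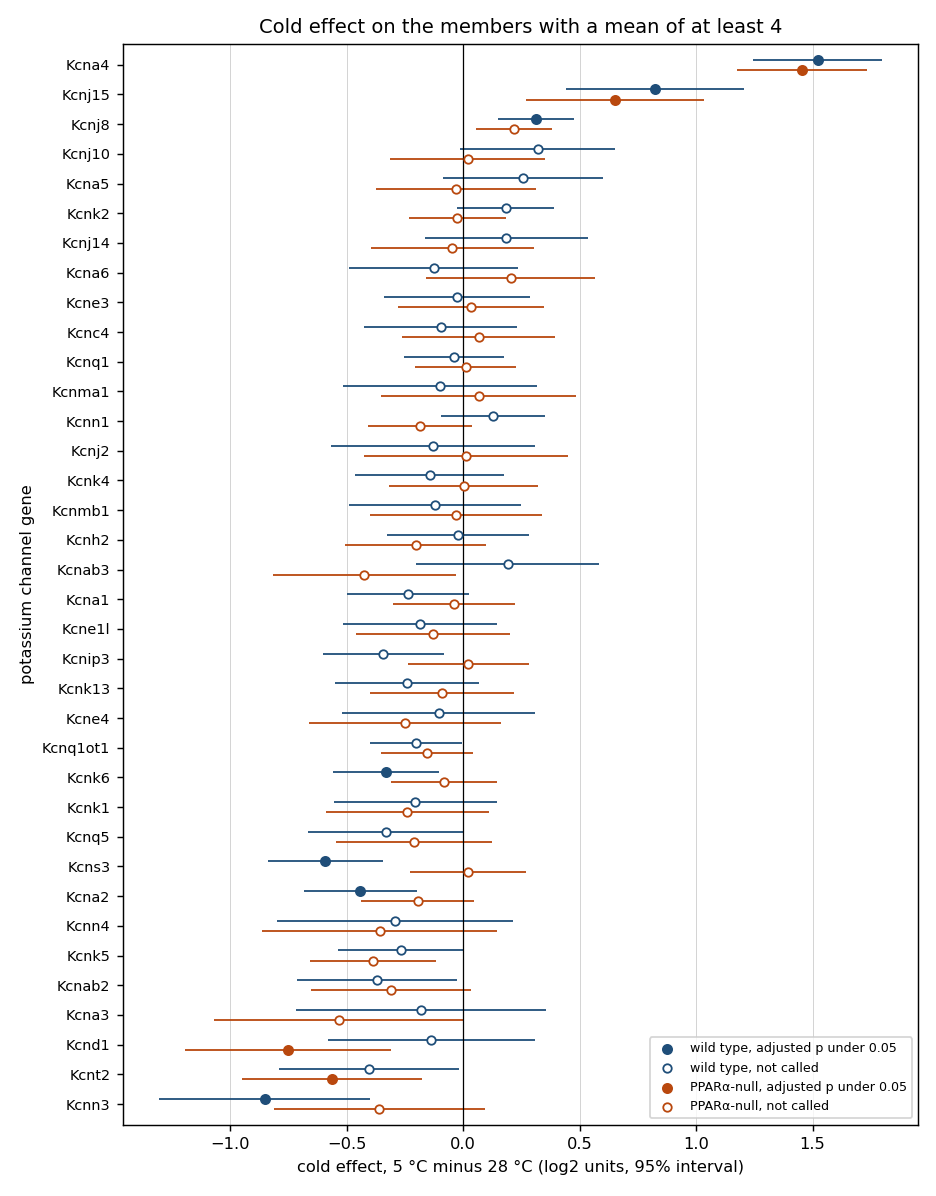
Cold effect (x axis, 5 °C minus 28 °C in log2 units, with 95% intervals) of the 36 genes with a mean of at least 4, in wild-type and PPARα-null mice. Filled points were called at an adjusted p under 0.05. Kcna4 at 1.52 and 1.45 and Kcnj15 at 0.82 and 0.65 lie to the right of 0 in both genotypes, and most other intervals include 0.

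The 4 genes that rose are shown with the 250 bases before their start in RefSeq (build GRCm38.p6), read 5′ to 3′ on the gene's own strand, because they are the members that moved up together on average over the genotypes. Capitals mark the half-site of the cAMP response element, TGACG, on either strand; here it is read on the reverse strand.
Kcna4 (chr2:107290339-107290588, plus strand): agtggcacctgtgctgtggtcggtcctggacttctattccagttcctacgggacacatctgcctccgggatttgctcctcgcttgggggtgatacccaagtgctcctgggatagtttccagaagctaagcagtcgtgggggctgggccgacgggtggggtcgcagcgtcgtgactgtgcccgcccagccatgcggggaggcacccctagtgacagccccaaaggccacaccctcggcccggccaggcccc
Kcnj15 (chr16:95257308-95257557, plus strand): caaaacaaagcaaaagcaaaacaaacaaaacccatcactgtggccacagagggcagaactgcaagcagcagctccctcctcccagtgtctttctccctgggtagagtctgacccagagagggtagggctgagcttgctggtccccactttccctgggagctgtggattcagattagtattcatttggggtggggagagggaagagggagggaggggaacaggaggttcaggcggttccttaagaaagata
Kcnj8 (chr6:142571615-142571864, minus strand): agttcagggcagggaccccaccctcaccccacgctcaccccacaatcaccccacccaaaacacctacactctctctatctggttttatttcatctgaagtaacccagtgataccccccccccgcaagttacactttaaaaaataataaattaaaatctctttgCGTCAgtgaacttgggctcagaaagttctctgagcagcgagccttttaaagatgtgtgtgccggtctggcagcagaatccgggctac
Kcng4 (chr8:119635681-119635930, minus strand): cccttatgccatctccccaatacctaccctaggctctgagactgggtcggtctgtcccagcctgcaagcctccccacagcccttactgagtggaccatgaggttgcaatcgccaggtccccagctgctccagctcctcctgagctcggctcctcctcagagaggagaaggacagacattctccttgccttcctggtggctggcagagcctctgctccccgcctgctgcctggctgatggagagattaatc
The half-site was found in 1 of these 4, Kcnj8. Among the 95 promoters of the 70 matched members 15.8% held it, and among all 32851 promoters of the same length 17.8% did. The whole element TGACGTCA was in 0 of the 95 and in 1.55% of all. The repeat bound by PPARα, searched on both strands as AGGTCA followed after 1 base by AGGTCA, was in 0 of the 95 and in 0.0335% of all, and the oestrogen-related receptor element TCAAGGTCA in 0 of the 95 and in 0.387% of all. A match or its absence describes these letters only.

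Among the voltage-gated pore subunits, Kcna4, which forms a rapidly inactivating channel, changed most of the 90 genes in both genotypes. In wild-type mice its signal at 28 °C ran from 9.18 through a median of 9.44 to 9.67, and at 5 °C it was 11.06, 10.73, 10.96, 10.82 and 11.23. In null mice it ran from 9.09 through 9.39 to 9.85 at 28 °C and was 11.19, 10.65, 10.65, 10.85 and 10.96 at 5 °C. Every cold array lay above every warm array in both genotypes. The rise was 1.52 (SE 0.13, adjusted p = 4.80e-08), or 2.87-fold, in wild type and 1.45 (SE 0.13, adjusted p = 1.07e-07), or 2.74-fold, in null mice. The difference between them was -0.07 with a 95% interval from -0.46 to 0.32.

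A second probe set annotated to Kcna4 did not give this result. It was near background, with medians of 2.51 and 2.63 in wild type and 2.77 and 2.79 in null mice at 28 °C and 5 °C. Its cold change was 0.14 (SE 0.14, adjusted p = 0.625) and 0.08 (SE 0.14, adjusted p = 0.843) in a limma fit over all 41345 probe sets, where the brighter set kept its call in both genotypes. With the mean of the probe sets the change of the gene came to 0.83 in wild type, and to 0.77 in null mice. Of all genes, Sdhb, a subunit of succinate dehydrogenase, followed the brighter set most closely over the 22 arrays, with a Pearson r of 0.991, and Sucla2, Dld, Uqcrc2 and Hadha came next, each at 0.989. With each group's mean taken away, Suclg1 (0.906) and Atp5pb (0.898) led. These coefficients describe arrays that share 4 group means, and carry no test. Whether the brighter set reads Kcna4 RNA was not tested, so the Kcna4 change is that of a probe set.

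**Figure D3:**
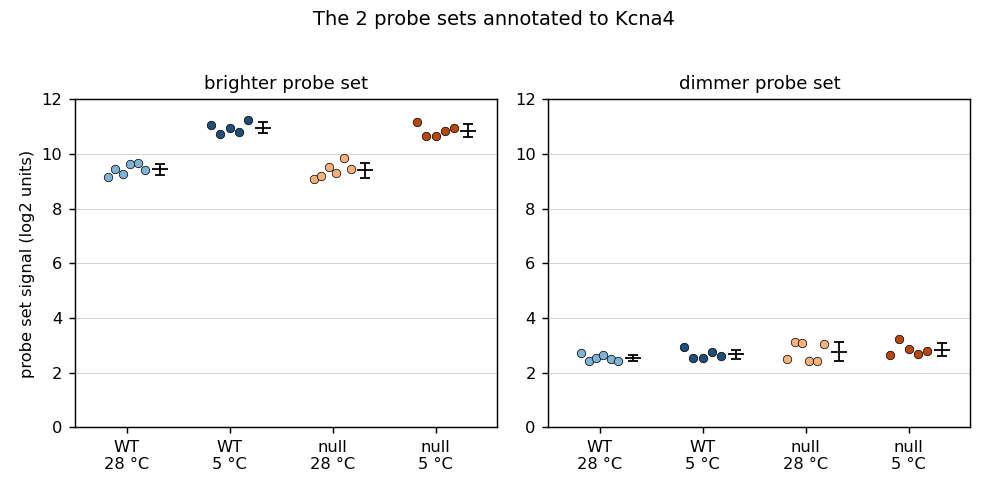
Log2 signal (y axis) of both probe sets annotated to Kcna4, by array in the 4 groups, with mean and SD. The brighter set lies between 9.09 and 9.85 at 28 °C and between 10.65 and 11.23 at 5 °C, while the dimmer set lies between 2.43 and 3.22 in all groups.

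Kcna2 forms, with Kcna1, channels of myelinated axons. In wild-type mice Kcna2 ran from 5.78 through 5.89 to 6.27 at 28 °C and was 5.16, 5.75, 5.62, 5.61 and 5.37 at 5 °C. The groups did not overlap, although their nearest arrays lay close, and the fall was -0.44 (SE 0.12, adjusted p = 0.0102). In null mice the change was -0.20 (SE 0.12, adjusted p = 0.334). The wild-type call was lost (-0.34, adjusted p = 0.0890) when the array with the most B and T cell signal in each group was left out. Kcna1 changed by -0.24 (SE 0.13, adjusted p = 0.232) and -0.04 (SE 0.13, adjusted p = 0.900). Of the 7 measured nerve and Schwann cell markers, 3 fell and 1 rose in wild type, and 2 fell and 1 rose in null mice. With these markers the deviations of Kcna1 gave an r of 0.496 (permutation p = 0.0539, adjusted 0.126) and a rho of 0.386 (permutation p = 0.116, adjusted 0.270), and r was 0.342 without the 2 arrays farthest from the marker median. Those of Kcna2 gave an r of 0.112 (permutation p = 0.643, adjusted 0.700) and a rho of 0.086 (permutation p = 0.723, adjusted 0.843).

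Kcnd1, the pore of a transient current that opens below threshold, fell in null mice. It ran from 4.05 through 4.37 to 4.83 at 28 °C and was 3.54, 3.99, 3.81, 3.74 and 3.32 at 5 °C, with no overlap. The fall was -0.75 (SE 0.21, adjusted p = 0.0207), or 1.68-fold. In wild type the change was -0.14 (SE 0.21, adjusted p = 0.738), with values from 3.59 to 4.57 at 28 °C and from 3.56 to 4.70 at 5 °C. The difference of the changes, -0.61, had a 95% interval from -1.24 to 0.01. The null call was lost without null 5 °C replicate 1 or 5 or null 28 °C replicate 2. Over all arrays left out in turn the null change lay between -0.83 and -0.66, with an adjusted p of up to 0.0647.

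Kcna3 carries the main voltage-gated current of T cells, and it was among the most variable genes between mice of 1 group. Its SD within groups was 0.458, larger than that of 95.8% of all genes. Its signal ran from 4.59 to 5.82 in wild type and from 4.97 to 6.69 in null mice at 28 °C, and from 4.51 to 5.13 and from 4.58 to 5.32 at 5 °C. The cold change was -0.18 (SE 0.26, adjusted p = 0.715) and -0.53 (SE 0.26, adjusted p = 0.211). Its deviations from the group means followed those of the B and T cell markers over the 22 arrays, with a Pearson r of 0.809 (p = 6e-05, adjusted 0.00042) and a Spearman rho of 0.809 (p = 0.00015, adjusted 0.00105). These are two-sided permutation tests within groups, 7 such relations were computed, and r was 0.727 over the 20 arrays left without the 2 farthest from the marker median. What part lymphocytes had in the Kcna3 signal was not tested.

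**Figure D4:**
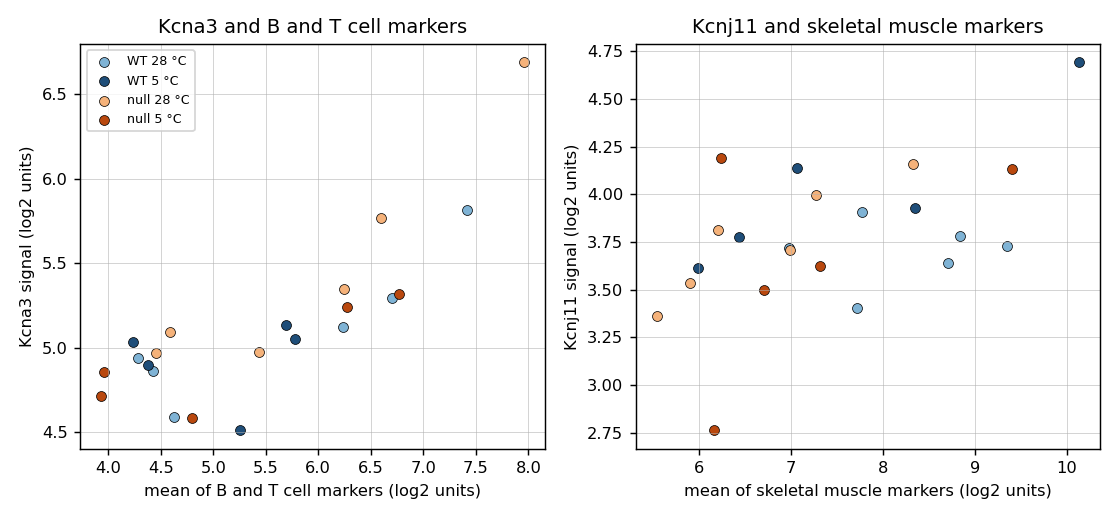
Log2 signal of Kcna3 against the mean of 11 B and T cell markers (left) and of Kcnj11 against the mean of 16 skeletal muscle markers (right), 1 point per array, coloured by group. Kcna3 is highest, at 6.69, on the null 28 °C array with the highest B and T cell signal, 7.96.

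Among the silent subunits, Kcns3 fell in wild-type mice and was not called in null mice. Kcns3 conducts no current alone and alters the gating of the pore it joins. At 28 °C it ran from 6.57 through 6.74 to 6.92 in wild type and from 6.10 through 6.20 to 6.65 in null mice. At 5 °C it was 5.82, 6.11, 6.23, 6.56 and 6.04 in wild type and 6.19, 6.59, 6.37, 6.25 and 6.17 in null mice. The wild-type arrays at 28 °C thus had the highest median. They overlapped both null groups and lay just above the wild-type arrays at 5 °C. The remaining groups overlapped each other. In null against wild-type mice at 28 °C the 16 skeletal muscle markers had a median change of -1.66 and the 8 mast cell markers of -0.36 (12 and 5 at an unadjusted p under 0.05, 0 called). Of the mast cell markers 4 fell in the cold in wild type and 0 were called in null mice (1 at an unadjusted p under 0.05). With muscle and lymphocyte scores as covariates the Kcns3 change in wild type was -0.65 (adjusted p = 0.00101), and the part of mast cells was not tested. The cold change was -0.59 (SE 0.12, adjusted p = 0.00107), or 1.51-fold lower, in wild type and 0.02 (SE 0.12, adjusted p = 0.947) in null mice. The difference of the changes was 0.61 (SE 0.17), with a 95% interval from 0.26 to 0.96 that is not adjusted for the number of genes. It did not pass limma's test over all genes (adjusted p = 0.872). It shares the 28 °C arrays with the genotype comparison given below.

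Kcng4, also a silent subunit, lies just under the background limit. In wild type it ran from 3.19 through 3.48 to 3.65 at 28 °C and was 4.60, 4.72, 3.72, 3.84 and 3.92 at 5 °C. A pair of cold arrays, replicates 1 and 2, stood well above the other three, and the groups did not overlap. The rise was 0.72 (SE 0.15, adjusted p = 0.00161), and 0.58 without wild-type 5 °C replicate 2. That array also had the highest muscle signal of the study, 10.14. With muscle and lymphocyte scores as covariates the rise was 0.82 (adjusted p = 0.000388). In null mice the change was 0.29 (SE 0.15, adjusted p = 0.247).

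Of the 14 inward rectifiers, Kcnj15 and Kcnj8 were called in wild type, both as rises (14.3%, beside 16.7% of all genes). In null mice only Kcnj15 was called (7.14%, beside 13.2% of all genes). Kcnj15 makes the channel Kir4.2. It ran from 4.06 through 4.41 to 5.12 in wild type at 28 °C and was 4.81, 5.30, 5.24, 5.79 and 5.39 at 5 °C, so that 1 cold array lay within the warm range. In null mice it ran from 3.98 through 4.60 to 4.75 and was 5.28, 5.12, 5.18, 5.37 and 4.96 in the cold, with no overlap. The rise was 0.82 (SE 0.18, adjusted p = 0.00280), or 1.77-fold, in wild type and 0.65 (SE 0.18, adjusted p = 0.0202), or 1.57-fold, in null mice. The wild-type call held under all 33 alternatives run. The null call was lost without null 5 °C replicate 1 or 4 or null 28 °C replicate 2, and without the arrays highest in muscle or in B and T cell signal. The null change lay between 0.54 and 0.71 over all arrays left out in turn, with an adjusted p of up to 0.0563.

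Kcnj8 is the pore of the ATP-sensitive channel of vascular smooth muscle and pericytes, where it pairs with the sulfonylurea receptor Abcc9. In wild type it ran from 6.77 through 6.89 to 7.06 at 28 °C and was 7.26, 7.10, 7.30, 7.12 and 7.29 at 5 °C. In null mice it ran from 6.71 through 6.97 to 7.17 at 28 °C and was 7.09, 7.16, 7.06, 7.17 and 7.31 at 5 °C. The wild-type groups did not overlap and the null groups did. The rise was small, 0.31 (SE 0.08, adjusted p = 0.00737) in wild type, and in null mice the change was 0.22 (SE 0.08, adjusted p = 0.0720). The null change was called with array medians subtracted and with only genes of a mean of at least 4 tested. It was also called with limma's trended and robust variance, and without null 28 °C replicate 4. Abcc9 changed by 0.12 (SE 0.07, adjusted p = 0.271) and 0.0006 (SE 0.07, adjusted p = 0.997). Of the 9 mural and smooth muscle markers, 1 rose and 2 fell in wild type and 2 fell in null mice, and the deviations of Kcnj8 from its group means gave an r of 0.101 with them (permutation p = 0.700, adjusted 0.700) and a rho of 0.047 (permutation p = 0.847, adjusted 0.847).

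Kcnj11, the pore of the ATP-sensitive channel of skeletal muscle and of insulin-secreting cells, lay near background with a mean of 3.78. It changed by 0.33 (SE 0.22, adjusted p = 0.343) in wild type and -0.12 (SE 0.22, adjusted p = 0.805) in null mice. Its deviations followed those of the skeletal muscle markers, with an r of 0.652 (permutation p = 0.00501, adjusted 0.0175) and a rho of 0.609 (p = 0.00795, adjusted 0.0278, permutation test). Without the 2 arrays farthest from the marker median r was 0.468.

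Among the two-pore channels, Kcnk6 was called in wild type and Kcnk5 on average. Kcnk6, found on endolysosomes and at the cell surface, ran from 6.36 through 6.37 to 6.58 in wild type at 28 °C and was 6.54, 5.97, 5.92, 6.25 and 5.81 at 5 °C. The first cold array lay within the warm range and the others below it. The fall was -0.33 (SE 0.11, adjusted p = 0.0413), and -0.08 (SE 0.11, adjusted p = 0.722) in null mice. It is a weak call: 8 of the arrays left out one at a time ended it, namely wild-type 5 °C replicates 2, 3 and 5 and wild-type 28 °C replicates 1, 2, 3, 4 and 5, with changes between -0.44 and -0.26 and an adjusted p of up to 0.132. Kcnk5, which is opened by alkaline pH, changed by -0.27 (SE 0.13, adjusted p = 0.183) and -0.39 (SE 0.13, adjusted p = 0.0541), and on average fell by 0.33 (SE 0.09, adjusted p = 0.0109).

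Of the channels opened by calcium, the small-conductance channel Kcnn3 fell. In wild type it ran from 4.27 through 4.73 to 4.97 at 28 °C and was 3.40, 4.09, 4.00, 3.30 and 4.38 at 5 °C. In null mice it ran from 4.21 through 4.39 to 5.21 and was 4.36, 4.63, 4.37, 3.92 and 3.45. The highest wild-type cold array lay inside the warm range, and the null groups overlapped widely. The fall was -0.85 (SE 0.22, adjusted p = 0.00807), or 1.81-fold, in wild type, and the null change was -0.36 (SE 0.22, adjusted p = 0.342). Macrophage and fibroblast markers fell in the same mice, with median changes of -0.66 and -0.70 in wild type, and their part in the result was not tested.

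Kcnn4, the intermediate-conductance channel of lymphocytes and macrophages, changed by -0.29 (SE 0.24, adjusted p = 0.478) and -0.36 (SE 0.24, adjusted p = 0.412). Its SD within groups, 0.430, was larger than that of 94.5% of all genes, and its r with the macrophage markers was -0.216 (permutation p = 0.341, adjusted 0.478) and its rho -0.246 (permutation p = 0.289, adjusted 0.493). A coefficient with the B and T cell markers was not computed. In each group, however, Kcnn4 was highest on the array with the most B and T cell signal. At 28 °C and 5 °C these arrays read 5.65 and 4.83 in wild type and 5.92 and 5.16 in null mice. What part lymphocytes had in the Kcnn4 signal was not tested. Kcnma1, the large-conductance channel of smooth muscle, changed by -0.10 (SE 0.20, adjusted p = 0.803) and 0.07 (SE 0.20, adjusted p = 0.896). Its r with the mural and smooth muscle markers was 0.316 (permutation p = 0.128, adjusted 0.223) and its rho 0.214 (permutation p = 0.352, adjusted 0.493), and r was 0.087 without the 2 farthest arrays. Its smooth muscle subunit Kcnmb1 changed by -0.12 (SE 0.18, adjusted p = 0.722) and -0.03 (SE 0.18, adjusted p = 0.946).

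The sodium-activated channel Kcnt2 gave a tight warm group in wild type, from 4.32 through 4.40 to 4.45, and 3.52, 3.87, 4.32, 4.07 and 4.17 at 5 °C. In null mice it ran from 3.81 through 4.69 to 5.00 at 28 °C and was 4.04, 4.39, 3.62, 4.31 and 3.57 at 5 °C. The wild-type groups did not overlap, although their nearest arrays lay close, and the null groups did. The null change was called, at -0.56 (SE 0.19, adjusted p = 0.0480), and the wild-type change was not, at -0.41 (SE 0.19, adjusted p = 0.153). The wild-type change was called when only the groups compared were fitted, where the null call was lost. It was also called with muscle and lymphocyte scores as covariates. The null call lay at the threshold and was lost under 21 of 33 alternatives, with changes between -0.71 and -0.46 and an adjusted p of up to 0.146. With 1 array left out it held only without null 5 °C replicate 2 or 4, null 28 °C replicate 1 or 4, or wild-type 5 °C replicate 1 or 3. On average the fall was 0.48 (SE 0.13, adjusted p = 0.00824) and was called under all alternatives run.

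Of the 16 auxiliary subunits limma called 0 in either genotype alone, beside 16.7% and 13.2% of all genes. At an unadjusted limma p under 0.05 stood 3 and 1 of the 16, beside 6272 and 5370 of all 22180 genes. On average 2 fell (12.5%, beside 24.8% of all genes). Both bind to Kcna pores from the cytoplasm. Kcnab1, near background, fell by 0.38 (SE 0.13, adjusted p = 0.0294) and Kcnab2 by 0.34 (SE 0.12, adjusted p = 0.0365). In wild type Kcnab2 ran from 4.67 to 5.51 at 28 °C and from 4.59 to 4.75 at 5 °C, and in null mice from 4.78 to 5.79 and from 4.69 to 5.11. Both calls were weak. That of Kcnab1 was lost without any of null 5 °C replicate 5, wild-type 5 °C replicates 2 and 5 and null 28 °C replicate 2 (changes between -0.43 and -0.315 over all arrays left out, adjusted p of up to 0.0639). That of Kcnab2 was lost under 15 of 32 alternatives (adjusted p of up to 0.0788). The change was -0.19 (adjusted p = 0.0588) with muscle and lymphocyte scores as covariates, and -0.27 (adjusted p = 0.0639) without the arrays highest in B and T cell signal. The call also ended without the cold arrays highest in muscle signal, with either other scaling and with the replicate block. Among the 15 were also the fits without null 5 °C replicate 1, 2 or 5, null 28 °C replicate 1 or 4, wild-type 5 °C replicate 3 or 4, or wild-type 28 °C replicate 2 or 3 (changes between -0.38 and -0.28 over all arrays left out). Kcnd1 on average, -0.44 (SE 0.15, adjusted p = 0.0341), was lost under 13 of 32 (adjusted p of up to 0.111). Among these were the fits without null 5 °C replicate 1 or 5, null 28 °C replicate 2 or 6, wild-type 5 °C replicate 2, 4 or 5, or wild-type 28 °C replicate 3 or 4 (changes between -0.53 and -0.39 over all arrays left out). Kcnrg, whose protein holds back the assembly of voltage-gated channels, lay between 2.44 and 3.05 at 28 °C and between 2.16 and 2.54 at 5 °C in wild type, all near background. It fell by 0.44 (SE 0.14, adjusted p = 0.0309) in wild type, where 6 of the arrays left out ended the call (wild-type 5 °C replicates 2, 3 and 5 and wild-type 28 °C replicates 3, 5 and 6, with changes between -0.50 and -0.37 over all arrays left out and an adjusted p of up to 0.0762).

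**Figure D5:**
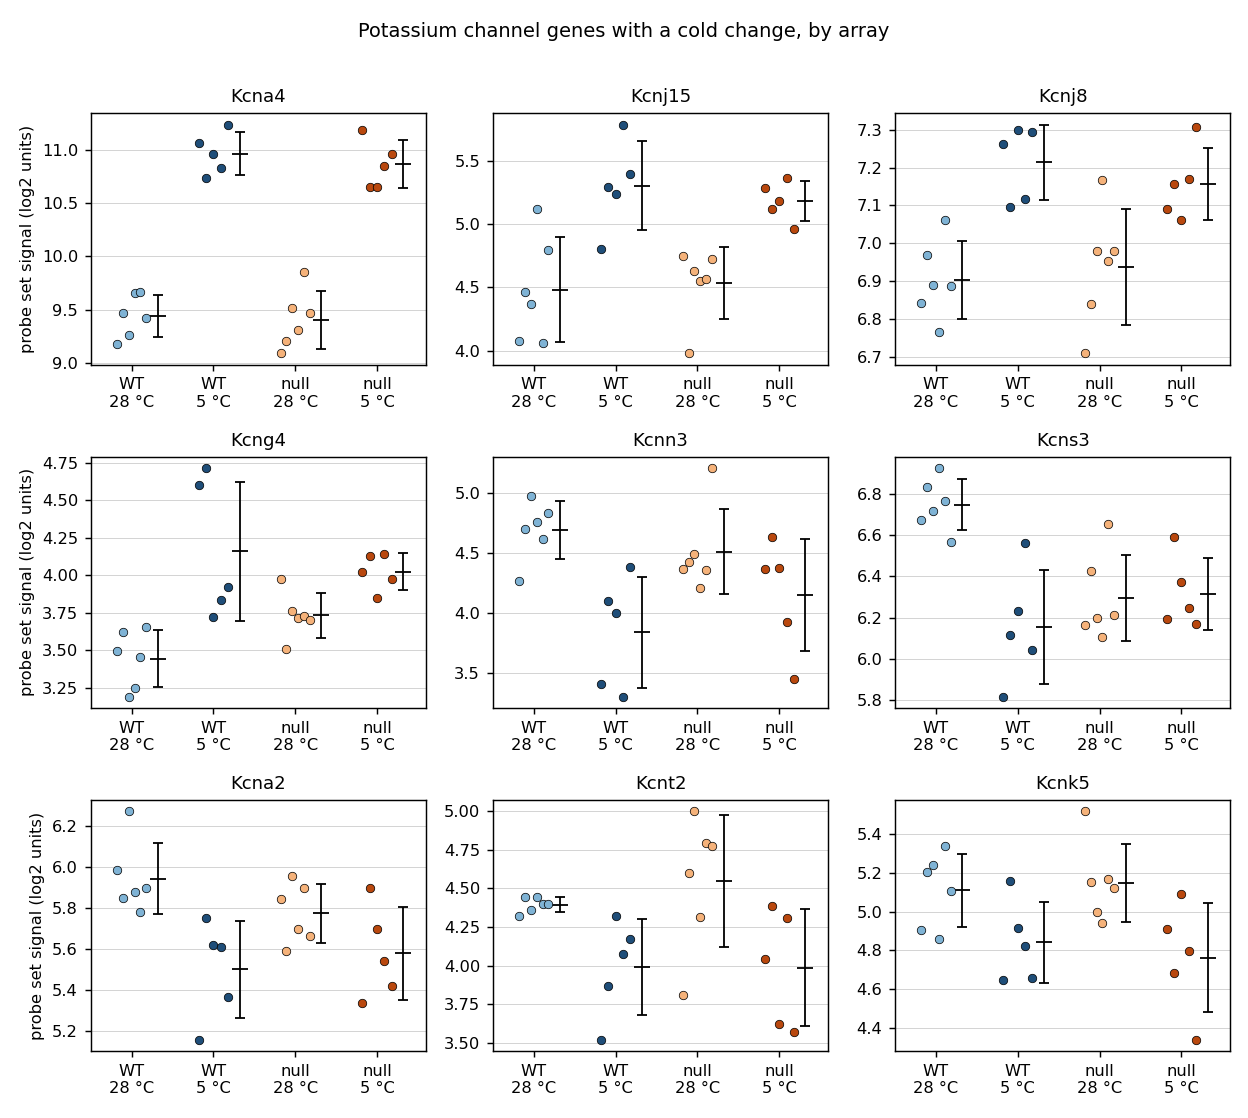
Log2 signal (y axis of each panel, each on its own range) of 9 genes called in a cold comparison, by array in the 4 groups, with mean and SD beside the points. Kcna4 separates warm from cold in both genotypes, Kcnj15 in null mice, and Kcns3 has its highest mean in wild type at 28 °C.

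No potassium channel gene was called for a difference between the genotypes. For the difference of the cold effects limma called 0 of the 90, beside 0% of all genes, with 6 of the 90 at an unadjusted p under 0.05. For null minus wild type at 28 °C it called 0 of the 90, beside 0.194% of all genes, and again 6 had an unadjusted p under 0.05. At 5 °C it called 0, beside 0.149% of all genes, and 6 had an unadjusted p under 0.05. Over all 22180 genes 1137, 1496 and 1476 had an unadjusted p under 0.05 in these comparisons. The smallest adjusted p among the 90 was 0.872, 0.201 and 0.415 in the same order. At 28 °C the smallest was that of Kcns3, which changed by -0.45 (null minus wild type, SE 0.11), with 5 of 6 null arrays below all wild-type arrays. At 5 °C it was that of Kcnip2, a calcium-binding subunit of Kcnd channels, near background at 2.18 to 2.35 in wild type and 2.58 to 2.94 in null mice (0.51, SE 0.16, adjusted p = 0.415). Kcnab3, a cytoplasmic subunit like Kcnab2, followed with -0.61 (SE 0.20, adjusted p = 0.461). A p that misses the threshold does not show that the genotypes were alike.

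Other genes of potassium handling were read from 2 lists, partners of the channels, and pumps and carriers. Of the 14 partners measured, 1 rose in wild type, Tmem38b, whose protein forms a potassium channel of the endoplasmic reticulum. In wild type it was 5.88 ± 0.22 (SD, n = 6) at 28 °C and 6.40 ± 0.37 (SD, n = 5) at 5 °C, a limma change of 0.53 (SE 0.14, adjusted p = 0.00969). In null mice the change was 0.32 (SE 0.14, adjusted p = 0.153). Limma called 0 of the 14 in null mice, where 2 had an unadjusted p under 0.05, beside 5370 of all 22180 genes. The called shares were 7.14% and 0%, beside 16.7% and 13.2% of all genes. The median changes of the partners were 0.08 and 0.16.

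Of the 16 pumps and carriers measured, 2 rose and 2 fell in wild type, and 1 rose and 2 fell in null mice. These are 25% and 18.8% of the list, beside 16.7% and 13.2% of all genes. Slc12a2, the carrier that brings sodium, potassium and chloride into the cell together, rose by 0.46 (SE 0.10, adjusted p = 0.00314) and 0.36 (SE 0.10, adjusted p = 0.0229). Fxyd5, a regulator of the sodium pump, was lower in the cold in both genotypes, with changes of -0.47 (SE 0.13, adjusted p = 0.0164) in wild type and -0.53 (SE 0.13, adjusted p = 0.00915) in null. Fxyd6, of the same family, was lower too, with changes of -0.52 (SE 0.10, adjusted p = 0.000734) and -0.31 (SE 0.10, adjusted p = 0.0470). The second wild-type rise was that of Slc12a1, near background at 2.41 and 2.82. The median change of the 16 was -0.03 in each genotype.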

How the data were processed

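Total RNA (100 ng, integrity number above 8) from 22 fat pads was read on Affymetrix whole-transcript arrays, per the labels. The authors deposited log2 signals for 41345 probe sets, which were used unchanged; the submitters' processing notes name RMA, and the sources used here do not say which version or annotation build. Of the probe sets, 23521 had 1 gene symbol, 1814 several and 16010 none, which left 22180 genes. Limma (3.58.1, R 4.3.3) fitted the 4 groups together (18 residual and 3.35 prior degrees of freedom), with no filter and Benjamini-Hochberg adjustment. Arrays have no read depth, so their number limits the precision. Each array is 1 mouse.

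The genes and lists were chosen with earlier results of these data known. Named are members called in any comparison, the 5 with the highest mean, the 2 on either side of the mean of 4, and Kcnk3, Kcnj8, Kcnj11, Kcnma1, Kcnn4, Kcna3, Kcna1 and Kcna2; other named genes were chosen after their values were seen. Kcnk3 had only probe sets with several symbols. Replicate numbers were given by the labels, which do not say that they pair the mice, and the mice were treated as unpaired. Alternatives are in the closing section. The fit was tested on simulated data with changes put into the wild-type cold arrays, 50 genes for each size. It recovered 54% of changes of 0.5 log2 units, 88% of 1, 96% of 1.5 and 98% of 2. The other genes were left unchanged, whereas 3693 of 22180 were called in this comparison of the data, so the adjustment was stricter in the simulation. The changed genes were drawn from all genes, whose median SD within groups was 0.216, beside 0.266 for the 90. These rates therefore do not give the recovery among potassium channel genes.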

Additional observations from a re-analysis of the deposited data

Results flagged for a closer look

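In 6 of 92 groups of arrays checked over the 23 named genes, 1 array lay far from the others of its group; chance flags about 1 group in 20. Kcnab1 was 4.39 in wild-type 28 °C replicate 2, where the others lay between 3.40 and 3.67. Kcnd3 was 3.20 in wild-type 28 °C replicate 1, where the others lay between 3.81 and 4.10, and 3.26 in null 28 °C replicate 1, where the others lay between 3.81 and 3.96. Kcnj15 was 3.98 in null 28 °C replicate 2, against 4.55 to 4.75. Kcnn3 was 5.21 in null 28 °C replicate 6, against 4.21 to 4.49. Kcnn4 was 5.92 in null 28 °C replicate 1, against 4.59 to 5.05, and that array had the highest B and T cell signal of the study, 7.96.

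Kcnk3, known from brown fat, has no probe set of its own symbol here, but 2 probe sets carry both its symbol and that of Gm9899, a predicted gene. Both rose in the cold. The brighter ran from 6.41 to 6.86 in wild type and from 6.19 to 6.85 in null mice at 28 °C, and from 7.49 to 8.07 and from 7.49 to 7.97 at 5 °C, with no overlap. Its average change was 1.20 (limma over all probe sets, SE 0.10, adjusted p = 1.26e-08), with 1.20 in wild type and 1.21 in null mice. The dimmer rose by 0.66 on average (SE 0.11, adjusted p = 0.000135). The values cannot be assigned to one of these genes.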

How the results depend on the processing

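The counts of called potassium channel genes were recomputed under other scalings, a filter on low signals, the mean of probe sets, other variance settings, fits of only the groups compared and with each array left out. Added after seeing the data were fits without the arrays highest in muscle or in B and T cell signal, or with these signals as covariates. No direction reversed. With arrays left out in turn the count was 7 to 9 in wild type, 1 to 7 in null mice, 10 to 14 on average, and 0 for the interaction and for either genotype comparison. Without the muscle-high cold arrays it was 7, 3 and 12; without the arrays highest in B and T cell signal it was 6, 3 and 11. With replicate number as a replicate block it was 9, 3 and 13, where Kcnt2 lost its call in null mice. On average Kcnab2 and Kcnd1 lost their calls, while Kcnh5 and Kcnk6 gained one. The full fit over all genes called 1852 higher and 1841 lower in wild type. In null mice these were 1525 and 1405, and on average 2586 and 2913. Without the muscle-high cold arrays they were 1650 and 1515, 1269 and 1057, and 2363 and 2501. Without the arrays highest in B and T cell signal they were 1463 and 1391, 1259 and 1187, and 2254 and 2463. With the block they were 1831 and 1681, 1453 and 1230, and 2469 and 2656. The deviations of same-numbered mice of different groups had an r from -0.25 to 0.35 over 31 pairs, 6 above 0.1. Pairs with different numbers were not computed beside them, so these values cannot settle whether the numbers pair the mice. The calls of Kcna4, Kcnj15, Kcnj8, Kcng4, Kcnn3 and Kcns3 in wild type held under every alternative in which they were tested. The cause of lost calls was not tested. The values of Kcng4, Kcnrg, Kcnab1, Kcnj11 and Kcnip2 rest on signals near background.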

Other observations

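A probe set annotated to both Kcnj13 and Gigyf2, not counted among the genes above, fell in the cold in wild type by 0.38 (SE 0.11, adjusted p = 0.0390 from limma over all probe sets). In null mice its change was -0.35 (SE 0.11, adjusted p = 0.0664). Its values ran from 4.64 to 5.10 and from 4.30 to 4.78 in wild type, which overlap, and cannot be assigned to one of these genes.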
